A study of Homo sapiens with 4 samples.

Results

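The EGR, NAB and NR4A genes were followed in RNA that came down with the motor protein KIF5A. They are 9 of the 60719 genes in the count tables: EGR1, EGR2, EGR3 and EGR4, their corepressors NAB1 and NAB2, and the nuclear receptors NR4A1, NR4A2 and NR4A3. The set was drawn up by symbol around EGR1, after EGR1 had been seen among the genes with the largest d27 to WT difference in these same libraries. Differences between the constructs are therefore given for these 9 genes as a description, and the calls of the fit over all genes are counted for them without being read as a test. Each symbol matched 1 Ensembl gene identifier, and 8 of the 9 genes passed the filter on low counts. EGR4, with 1 count in WT and 14 in d27, did not.

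EGR proteins are zinc finger transcription factors whose genes are switched on within minutes when growth factors, depolarisation or stress activate ERK and calcium signalling. NAB1 and NAB2 bind EGR proteins and repress their targets, and NAB2 is itself an EGR target, which makes a negative feedback loop. The NR4A receptors are orphan nuclear receptors controlled mainly through how much of them is made. In neurons, EGR1, EGR3, NR4A1 and NR4A2 are standard markers of recent activity. EGR and NR4A messenger RNAs are short-lived.

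The libraries came from SK-N-AS, an established human neuroblastoma line, used 24 hours after lipid transfection with a V5-tagged KIF5A construct. KIF5A is a kinesin-1 heavy chain that moves cargo along microtubules. Cells received either the wild-type construct (WT) or a mutant one named d27, in a series on KIF5A mutations linked to amyotrophic lateral sclerosis, and RNA was taken from anti-V5 bead precipitates, 2 per construct. Both groups carry a transfected tagged construct, and no input or untransfected library is used here, so a value is a level in a precipitate and not an enrichment. A higher level in a precipitate of d27 cannot be told apart from a higher level in the cells that were lysed. In such bulk samples, fewer cells with a transcript and less transcript per cell also cannot be told apart.

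Depth ranged from 8142869 counts in genes (WT replicate 1) to 18335151 (d27 replicate 1). Entries that HTSeq assigned to no single gene were 47.6% and 47.3% of all entries in WT and 25.9% and 36.8% in d27. KIF5A, the transfected gene, made up 9.03% to 14.8% of a library's counts, with a log2 fold change of -0.20 ± 0.49 (edgeR adjusted p = 0.821). These counts do not separate the construct from the cells' own KIF5A transcript. Of 11 adrenergic neuroblastoma markers all 11 had counts, although TH had 0 to 5 and DBH 3 to 13 per library, and 10 of 11 mesenchymal markers had counts, with MEOX2 at 0. Among 8 markers of other cells, EPCAM, CDH5, HBB and S100B were at 0, whereas PTPRC, a leukocyte phosphatase, had 858 to 1852 counts per library. Of the 8 markers 2 passed the filter, and PTPRC fell from 176 ± 20 to 90.0 ± 14.8 CPM (SD, n = 2; log2 fold change -0.96, edgeR adjusted p = 0.0433). The summed level of these markers was 163 to 191 CPM in WT and 80.7 to 102 in d27. The part of the unassigned share and of these markers in the values below was not tested.

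The promoters of these genes are shown first, since SRF and CREB sites are the textbook elements through which early response genes are switched on. RefSeq windows of 300 bases, from 250 before to 50 after a start site, were found for 7 of the 9 genes, and EGR3 and NR4A2 had no window. The search covered both strands for the CArG box, which binds serum response factor (SRF), for the cAMP response element TGACGTCA (CRE), for its core TGACG or the reverse complement CGTCA (CRE core), for the EGR sites GCGTGGGCG and GCGGGGGCG, and for the NR4A monomer site AAAGGTCA. A full CRE contains the core on both strands. The EGR1, EGR2 and NR4A3 sequences below are from the gene's own strand, 5′ to 3′, on GRCh38.p14, with matches in capitals. They hold no annotated exon of the gene.
EGR1, chr5:138465229-138465478, plus strand: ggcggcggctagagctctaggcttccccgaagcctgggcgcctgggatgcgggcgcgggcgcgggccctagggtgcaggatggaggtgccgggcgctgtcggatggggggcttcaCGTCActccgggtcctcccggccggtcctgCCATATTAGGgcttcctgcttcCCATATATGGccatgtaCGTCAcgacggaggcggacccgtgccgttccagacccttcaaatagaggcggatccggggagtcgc
EGR2, chr10:62816367-62816616, minus strand: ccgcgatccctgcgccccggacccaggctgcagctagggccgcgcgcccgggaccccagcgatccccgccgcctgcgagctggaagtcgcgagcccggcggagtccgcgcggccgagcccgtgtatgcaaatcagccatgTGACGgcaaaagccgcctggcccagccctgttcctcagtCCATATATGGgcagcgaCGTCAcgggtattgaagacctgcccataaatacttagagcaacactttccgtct
NR4A3, chr9:99821635-99821854, plus strand: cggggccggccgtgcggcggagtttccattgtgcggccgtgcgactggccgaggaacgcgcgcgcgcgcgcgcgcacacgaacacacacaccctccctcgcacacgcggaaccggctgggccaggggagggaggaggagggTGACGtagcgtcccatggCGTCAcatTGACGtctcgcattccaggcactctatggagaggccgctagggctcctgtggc

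The EGR1 stretch held 2 CArG boxes, at 105 to 96 and 83 to 74 bases before the start, flanked by a CRE core on either side. EGR2 had the same arrangement at the most downstream of its 3 RefSeq starts, with 1 CArG box between 2 CRE cores. Its other 2 windows held no match. A CArG box was present in 1.29% of all 35116 windows and a CRE core in 24.6%, and both together in 0.273%. NR4A3 had no CArG box and 4 CRE cores, 3 of them in the printed stretch and the fourth 25 to 21 bases before the start, where 1.40% of windows had 3 or more. EGR4 had 2 CRE cores. NAB1 had 1 CRE core in each of its windows, the same one in the 2 windows that overlap. The 2 NR4A1 windows held none of the motifs, which says only that these letters are not in these windows.

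Both corepressor genes carried the EGR site, which is shown because NAB2 is known as an EGR target. It is printed with 10 bases on each side and 1 match in capitals per line, so the overlapping NAB1 match is not marked. NAB1 had the same 3 matches, 2 of which overlap, in each of 2 overlapping windows, and 0.0997% of windows had 3 or more. NAB2 had 1 match, and 5.77% of windows had at least 1. It lies 62 to 54 bases before the RefSeq start but inside the annotated gene, in a window with a GC content of 78.3%. The NAB1 matches also lie inside the annotated gene, in windows with a GC content of 77.0% and 82.0%. In the first of these windows 1 match lies 14 to 22 bases after the start. The shares are over all windows and were not matched for GC content. Neither the full CRE (1.85% of windows) nor the NR4A site (1.22%) occurred in any window of the 7 genes. A match is a run of letters and was not tested for binding.
NAB1, chr2:190648849-190648877: cggccgccccCGCCCCCGCccggcggcgg
NAB1, chr2:190648898-190648926: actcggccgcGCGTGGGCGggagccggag
NAB2, chr12:57089042-57089070: tgtgcgtcctGCGGGGGCGgaggcgcgga

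**Figure D1:**
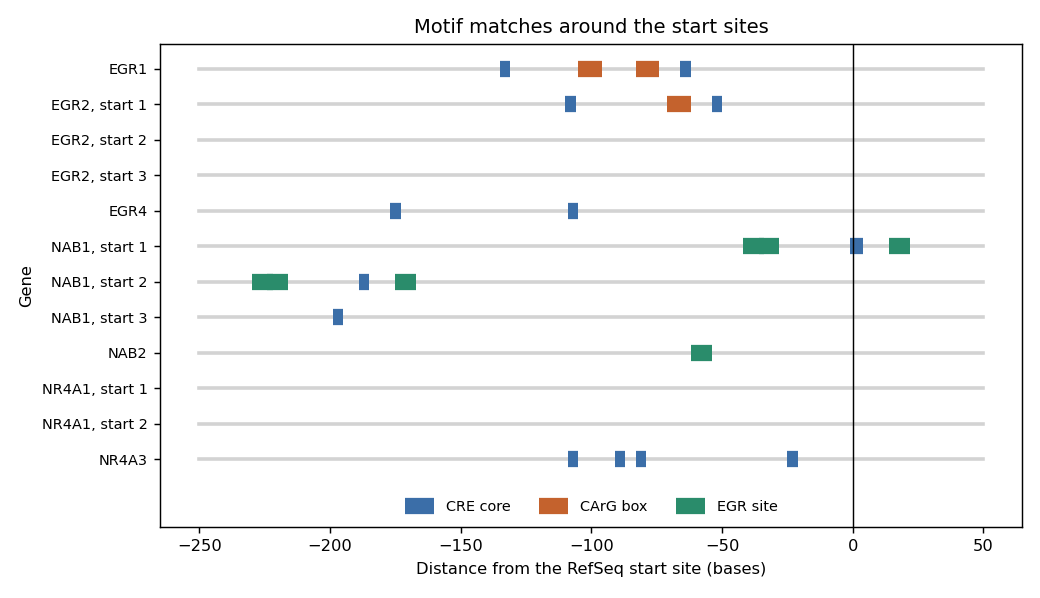
Each grey line is a RefSeq window, drawn by distance in bases from its start site, for 7 genes and 12 windows. Coloured blocks mark motif matches on either strand. EGR1 and EGR2 show CArG boxes between CRE cores, NR4A3 shows 4 CRE cores and the NAB genes show EGR sites.

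EGR1 dominated the set in the d27 precipitates. The gene (ENSG00000120738.8) lies on GRCh38 chromosome 5, 138465490 to 138469315, on the plus strand, and no exon of another annotated gene overlaps its exons. Its counts were 825 and 763 in WT and 71261 and 38128 in d27. Scaled to library size as CPM, with TMM factors, this was 93.6 and 79.1 in WT and 3866 and 3534 in d27. Both d27 libraries lay far above both WT libraries, and replicates differed by 1.18-fold in WT and 1.09-fold in d27. Means were 86.3 ± 10.3 and 3700 ± 235 CPM (SD, n = 2 each), a 42.9-fold difference and a log2 fold change of 5.42 ± 0.34 (SE). Counted from the largest rise in d27 downwards, this was 25th among 14909 genes. EGR1 took 0.0101% and 0.00706% of gene counts in WT (exact binomial 95% intervals 0.00945% to 0.0108% and 0.00657% to 0.00758%) and 0.389% and 0.364% in d27 (0.386% to 0.392% and 0.360% to 0.367%). Among all transcripts it stood at rank 2126 and 2660 by count in WT and at rank 3 and 4 in d27.

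The other EGR genes were far less abundant and did not move by the same amount. EGR3, which EGR1-inducing signals also switch on, had 5 and 7 counts in WT and 260 and 101 in d27. In CPM this was 0.567 and 0.725 against 14.1 and 9.36. Both WT counts lay below the low-count filter's minimum of 10, so EGR3 was tested only through d27, where it is high. The d27 libraries did not overlap the WT ones but differed by 1.51-fold between themselves, and the log2 fold change was 4.16 ± 0.54. With 12 counts over both WT libraries, the ratio of pooled counts over pooled library size was 19.0, with a 95% counting interval of 10.7 to 37.1. EGR3 (chromosome 8, 22687659 to 22693302, minus strand) shares 164 exonic bases with the noncoding AC055854.1 on the other strand. EGR2 (chromosome 10, 62811996 to 62919900, minus strand), the factor of Schwann cell myelination and hindbrain patterning, had 22 and 9 counts in WT and 77 and 51 in d27, that is 2.50 and 0.933 against 4.18 and 4.73 CPM. Its WT replicates differed by 2.68-fold, beside a 2.60-fold difference between group means, and the log2 fold change was 1.38 ± 0.68. Without WT replicate 1 it was 2.28 and without WT replicate 2 it was 0.85.

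EGR4 was close to the detection floor. It had 0 and 1 counts in WT and 2 and 12 in d27, and 3 counts correspond to 0.340 and 0.311 CPM in WT and 0.163 and 0.278 in d27. Only d27 replicate 2 lay above that floor. The d27 to WT ratio of pooled counts over pooled library size was 8.85 with a 95% counting interval of 1.35 to 374, and 12 of the 14 d27 counts came from that library. The interval covers counting error only. EGR4 (chromosome 2, 73290929 to 73293705, minus strand) shares no exonic base with another annotated gene.

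**Figure D2:**
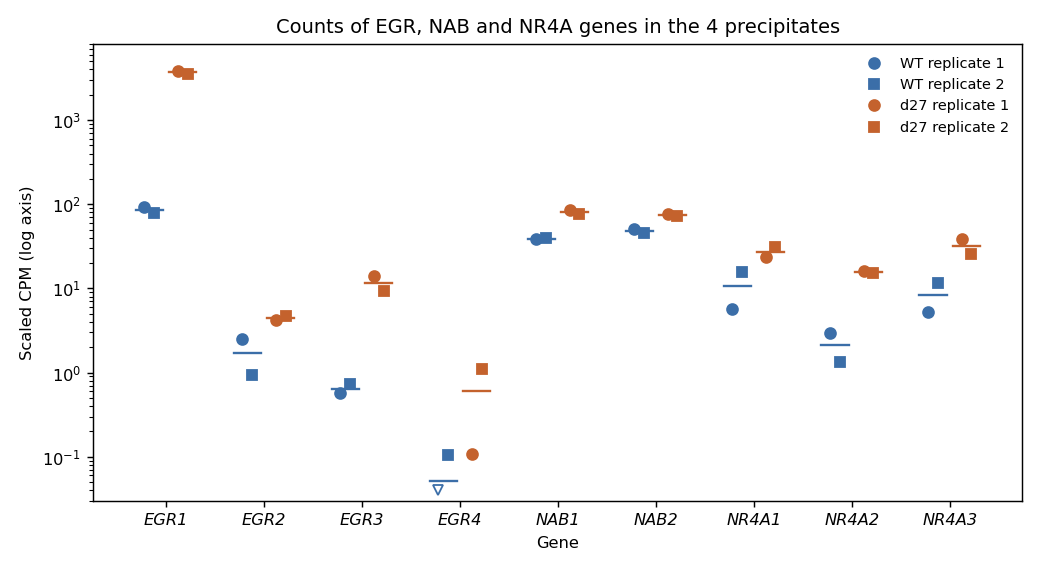
Points are the TMM-scaled CPM of each gene in the 4 libraries on a log axis, and short lines are group means (n = 2). The open triangle stands for the 0 counts of EGR4 in WT replicate 1. EGR1 goes from 93.6 and 79.1 in WT to 3866 and 3534 in d27, while both NAB genes lie between 38.6 and 85.4 in all libraries.

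The NAB corepressor transcripts had 2.07-fold (NAB1) and 1.55-fold (NAB2) higher means in d27. NAB1 had 340 and 381 counts in WT and 1574 and 820 in d27, or 38.6 and 39.5 CPM against 85.4 and 76.0. Its replicates were the closest of the set in WT, at 1.02-fold. The groups did not overlap, and the log2 fold change was 1.05 ± 0.24. NAB2 had 444 and 442 counts in WT and 1407 and 783 in d27, or 50.4 and 45.8 CPM against 76.3 and 72.6. This gave the smallest log2 fold change of the 8 tested genes, 0.63 ± 0.24. NAB2 (chromosome 12, 57088894 to 57095476, plus strand) shares 69 exonic bases with STAT6 on the other strand, and NAB1 (chromosome 2, 190646746 to 190692766, plus strand) shares 186 and 10 with 2 antisense transcripts.

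The balance of EGR1 to its corepressors can be read within each library, free of any scaling between libraries. Per kilobase of merged exon, EGR1 stood at 1.78 and 1.66 times the NAB2 level in the WT libraries and at 48.6 and 46.7 times in the d27 libraries. Against NAB1 it stood at 3.78 and 3.12 in WT and 70.5 and 72.4 in d27. The ratio of NAB2 to NAB1 was 2.12 and 1.88 in WT and 1.45 and 1.55 in d27, so the order of the corepressors did not change. Of all counts of the 9 genes, EGR1 made up 46.9% and 40.6% in WT and 93.7% and 93.8% in d27. Within the EGR family it made up 96.8% and 97.8% of counts in WT and 99.5% and 99.6% in d27.

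All NR4A receptors were higher in d27 libraries than in either WT library, and their WT replicates were uneven. NR4A2, the receptor required for midbrain dopamine neurons, had 26 and 13 counts in WT and 296 and 165 in d27, or 2.95 and 1.35 CPM against 16.1 and 15.3. Its d27 replicates differed by 1.05-fold, its WT replicates by 2.19-fold, and the log2 fold change was 2.87 ± 0.48. NR4A3 had 46 and 112 counts in WT and 719 and 275 in d27, or 5.22 and 11.6 CPM against 39.0 and 25.5 (1.94 ± 0.43). NR4A1, the first of the family to be found as a growth factor-induced gene, had 50 and 152 counts in WT and 430 and 331 in d27. That is 5.67 and 15.7 against 23.3 and 30.7 CPM, with a log2 fold change of 1.33 ± 0.47. WT replicate 2 was the higher WT library for NR4A1 and NR4A3 and the lower one for NR4A2.

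Leaving out a WT library moved the NR4A differences. Without WT replicate 2 the log2 fold change of NR4A1 was 2.27 and that of NR4A3 was 2.65, against 0.82 and 1.52 without WT replicate 1. For NR4A2 the order was the other way round, 2.43 without WT replicate 2 and 3.58 without WT replicate 1. NR4A1 (chromosome 12, 52022832 to 52059507, plus strand) shares 754 exonic bases with the lincRNA AC025259.3 on the other strand, and the strand setting of the counting is not known, so its count is uncertain. NR4A2 (chromosome 2, 156324432 to 156342348, minus strand) and NR4A3 (chromosome 9, 99821855 to 99866891, plus strand) share no exonic base with another annotated gene.

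**Figure D3:**
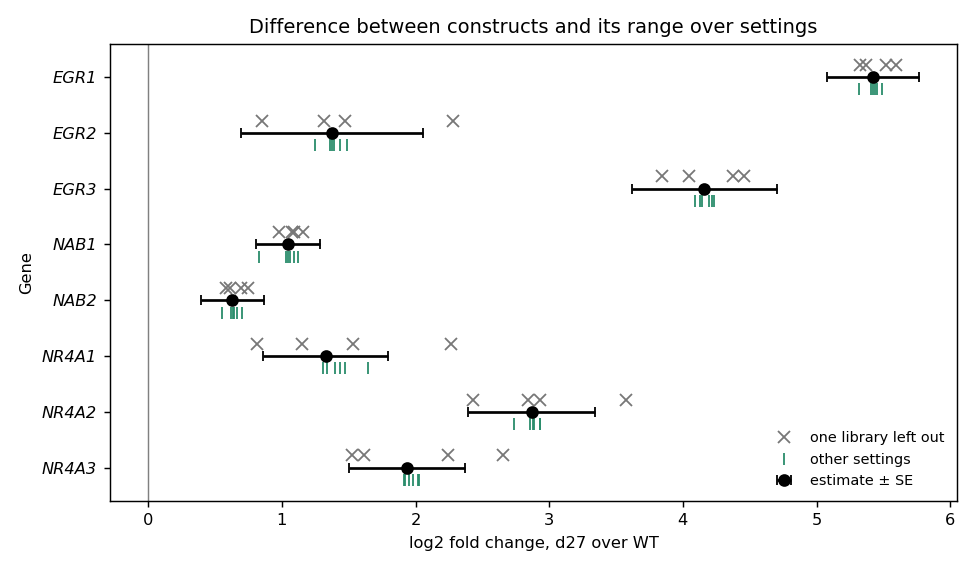
Black points are edgeR log2 fold changes, d27 over WT, with their standard errors for the 8 genes that passed the filter. Crosses are estimates with 1 of the 4 libraries left out and green marks are the other settings. Estimates for EGR1 stay between 5.32 and 5.59, and those of EGR2, NR4A1, NR4A2 and NR4A3 move most when a WT library is left out.

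Of the 8 tested genes, 5 passed an adjusted p of 0.05 in edgeR's fit over all genes (EGR1, EGR3, NAB1, NR4A2 and NR4A3), all higher in d27, where 8.00% of all tested genes were called higher and 11.7% in either direction. Both d27 libraries lay above both WT libraries for all 8, where 31.4% of all tested genes did and 29.8% had both below. Nothing is read from either count, because the set was chosen on this contrast. Without d27 replicate 1 NAB1 and NR4A3 did not pass, and NAB1 also did not pass without WT replicate 2. Calls over all genes were fewer in both of these fits than with all 4 libraries. With all 4 libraries EGR2, NAB2 and NR4A1 did not pass, although NR4A1 passed without WT replicate 2 and EGR2 without WT replicate 1. The labels do not say whether the precipitates came from separate cultures, so the fit and its p-values measure only how these precipitates vary, which may be technical variation.

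Levels can be compared between genes only per length. In WT, levels in CPM per kilobase of merged exon ran from EGR1 (27.5 ± 3.3, SD) over NAB2 (16.0 ± 1.1), NAB1 (7.99 ± 0.13), NR4A1 (1.47 ± 0.98), NR4A3 (1.33 ± 0.72), NR4A2 (0.541 ± 0.286), EGR2 (0.465 ± 0.300) and EGR3 (0.133 ± 0.023) to EGR4 (0.0218 ± 0.0308). Neighbours whose libraries overlapped in this order were NR4A1 with NR4A3 and NR4A2 with EGR2. In d27 the order was EGR1 (1179 ± 75), NAB2 (24.7 ± 0.9), NAB1 (16.5 ± 1.4), NR4A3 (5.11 ± 1.51), NR4A2 (3.95 ± 0.14), NR4A1 (3.70 ± 0.71), EGR3 (2.42 ± 0.69), EGR2 (1.21 ± 0.11) and EGR4 (0.257 ± 0.299). The libraries of NR4A3 overlapped those of NR4A2 there, and those of NR4A2 overlapped those of NR4A1, and NR4A1 stood above NR4A2 when the longest transcript was used as length (5.58 against 4.51). The first 3 places were the same in both groups, and EGR3 and EGR2 exchanged places.

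Against all 14825 tested genes with a length, the EGR1 level per kilobase had 1356 genes above it in WT and 10 in d27. NR4A2 stood at percentile 11.1 in WT and 48.4 in d27, and EGR3 at 1.77 and 37.2. NAB2 stood at 83.2 and 88.2. Summed per family, the EGR level was 30.6 and 25.6 CPM per kilobase in WT and 1236 and 1130 in d27, the NAB level 24.6 and 23.3 against 42.8 and 39.7, and the NR4A level 2.35 and 4.34 against 13.4 and 12.1. NR4A2 made up 31.7% of the summed NR4A level in WT replicate 1, 7.83% in WT replicate 2 and 30.2% and 31.9% in d27. The share of NR4A1 ranged from 23.8% (d27 replicate 1) to 49.8% (WT replicate 2), and that of NR4A3 from 33.4% (d27 replicate 2) to 46.0% (d27 replicate 1).

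**Figure D4:**
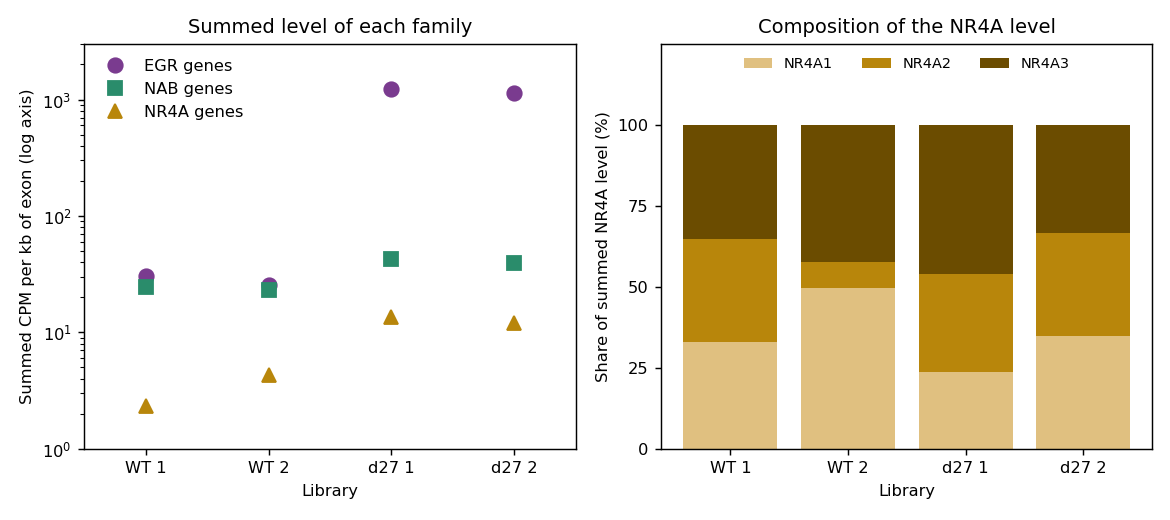
On the left, points give the summed level of the EGR, NAB and NR4A genes in each library as CPM per kilobase of exon on a log axis. On the right, bars give the share of each receptor in the summed NR4A level. EGR and NAB levels nearly coincide in WT (30.6 and 24.6 in replicate 1) and part in d27 (1236 and 42.8), and NR4A2 has its smallest share, 7.83%, in WT replicate 2.

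The transcripts themselves differ in build. By the GENCODE transcript with the longest coding sequence, the 4 EGR genes have 2 exons each, and 6.80% of 12050 tested protein-coding genes have 2 or fewer. NAB and NR4A transcripts have 7 to 10 exons, beside a median of 9. The pentamer ATTTA, the core of AU-rich decay elements, occurs once in the 3′ UTR of EGR1, 10 times in those of NAB1 and NR4A3 and 4 times in NR4A2, beside a median of 2, and is absent from EGR4. Per kilobase of 3′ UTR this was 0.810 for EGR1, 4.11 for NAB1 and 5.39 for NR4A1, beside a median of 1.58. The longer form TTATTTATT was found in NAB1 and NAB2 and in 8.52% of the tested genes, and in none of the EGR or NR4A transcripts.

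By distance over the 4 libraries, the genes nearest to EGR1 were TPPP, FOS, ATF3, IL11 and MYADM, out of 10799 with at least 50 counts in each d27 library. The distance was Euclidean, between log2 CPM values (prior count 2) centred on each gene's own mean, and was 0.435 for TPPP, 0.924 for FOS, 1.32 for ATF3, 1.33 for IL11 and 1.47 for MYADM. TPPP, which bundles microtubules, had 0.113 and 0.104 CPM in WT, a single count in each, and 14.5 and 15.8 in d27. Its WT counts lie below the floor of 3, so its distance depends on the prior count and its first place is not firm. FOS, an AP-1 subunit, had 10.4 and 16.0 in WT and 323 and 425 in d27. IL11, a cytokine of the IL-6 family, had 13.6 and 9.43 in WT and 208 and 188 in d27. The order is a description of 4 libraries. The count filter used d27, the group where EGR1 is high. The distance includes the d27 to WT difference on which EGR1 was chosen. Nearness is therefore no independent support for a link with EGR1.

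Among factors and kinases that act on EGR and NR4A promoters, the coactivator CRTC2, SRF and MAPK3 gave the lowest p-values and rose. Of 21 such genes 20 were tested, 8 rose, 0 fell and 12 did not pass. That is 40.0% called, beside 11.7% of all tested genes, with a median log2 fold change of 0.71 beside 0.00. This list, labelled inducing factors and kinases in the figure, also holds the deacetylases HDAC4, HDAC5 and HDAC7, which did not pass. CRTC2, which works with CREB, rose from 63.1 ± 3.4 to 566 ± 65 CPM (log2 fold change 3.16 ± 0.26 SE, edgeR adjusted p = 0.00384). SRF, the protein that binds CArG boxes, rose from 76.1 ± 3.8 to 295 ± 25 CPM (1.95 ± 0.24, edgeR adjusted p = 0.00725). MAPK3, which encodes the kinase ERK1, rose from 21.0 ± 2.9 to 88.6 ± 15 CPM (2.07 ± 0.27, edgeR adjusted p = 0.00877). These 3 stayed higher in d27 in all 10 other settings. That is no independent support, since they were picked by lowest p from these same libraries.

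Genes known as EGR targets included some that rose, led by ATF3. Of 30 such genes 26 were tested, 6 rose, 0 fell and 20 did not pass. That is 23.1% called, beside 11.7% of all tested genes, with a median of 0.48. Of the 26 estimates 20 were above 0. FN1 (log2 fold change -1.63 ± 0.46), PLAU (-1.08 ± 0.35) and THBS1 (-0.82 ± 0.25) were lower in d27 but did not pass (edgeR adjusted p = 0.0590, 0.0805 and 0.0748). ATF3, a stress-induced transcription factor, rose from 12.2 ± 2.8 to 228 ± 20 CPM (log2 fold change 4.22 ± 0.29, edgeR adjusted p = 0.00226). TGFB1, the growth factor, rose from 164 ± 27 to 469 ± 27 CPM (1.51 ± 0.25, edgeR adjusted p = 0.0149), and GADD45B, a stress-response regulator, from 8.78 ± 1.86 to 28.4 ± 2.5 CPM (1.69 ± 0.31, edgeR adjusted p = 0.0191). Without d27 replicate 1 GADD45B did not pass (log2 fold change 1.61) and calls on this list were fewer. Without WT replicate 1 they were more numerous and went in both directions. Calls over all genes moved the same way in both fits. ATF3, GADD45B, ARC and DUSP4 also stand on the early response list below.

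Partners and targets of the NR4A receptors were called about as often as all genes. Of 22 such genes 8 were tested, 1 fell and 7 did not pass (12.5% called, beside 11.7% of all tested genes), with a median of -0.03. DDC, the decarboxylase of dopamine synthesis, fell from 32.6 ± 6.2 to 13.9 ± 3.5 CPM (-1.24 ± 0.32, edgeR adjusted p = 0.0452), a call lost without d27 replicate 1 (edgeR adjusted p = 0.301) and with library totals in place of TMM (0.0801). Calls on this list changed in number with the library left out, as did calls over all genes. TH, another NR4A2 target, was at 0 in WT replicate 2 and d27 replicate 1.

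The NuRD complex, through which NAB proteins repress, had a share of calls near that of all genes. Of 13 tested genes 2 rose and 11 did not pass (15.4% called, beside 11.7% of all tested genes), with a median of 0.43. GATAD2A rose from 331 ± 2 to 876 ± 132 CPM (log2 fold change 1.41 ± 0.26, edgeR adjusted p = 0.0196) and GATAD2B from 121 ± 24 to 253 ± 31 CPM (1.06 ± 0.26, edgeR adjusted p = 0.0376). Both encode subunits that join the remodeller CHD4 to the deacetylase core. Both calls were lost without d27 replicate 1 (edgeR adjusted p = 0.0563 and 0.129), and that of GATAD2B also without WT replicate 2 (0.109) and with library totals (0.0613). Without WT replicate 1 calls on this list were more numerous and went in both directions, as did calls over all genes. Among 5 factors that bind GC-rich sites like those of EGR proteins, SP2 rose from 47.3 ± 13.7 to 227 ± 13 CPM (2.26 ± 0.28, edgeR adjusted p = 0.00751), and SP1, SP3, SP4 and WT1 did not pass.

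Other early response genes included the steepest rises of the lists, FOSB and FOS. Of 42 such genes 39 were tested, 19 rose, 0 fell and 20 did not pass. That is 48.7% called, beside 11.7% of all tested genes, with a median of 0.96. FOSB, an AP-1 subunit, rose from 2.70 ± 0.29 to 427 ± 19 CPM (log2 fold change 7.30 ± 0.32, edgeR adjusted p = 0.000233) and FOS from 13.2 ± 3.9 to 374 ± 72 CPM (4.82 ± 0.34, edgeR adjusted p = 0.00226). The 6 lists were chosen with results of these libraries known, so their counts are no independent evidence of a direction.

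**Figure D5:**
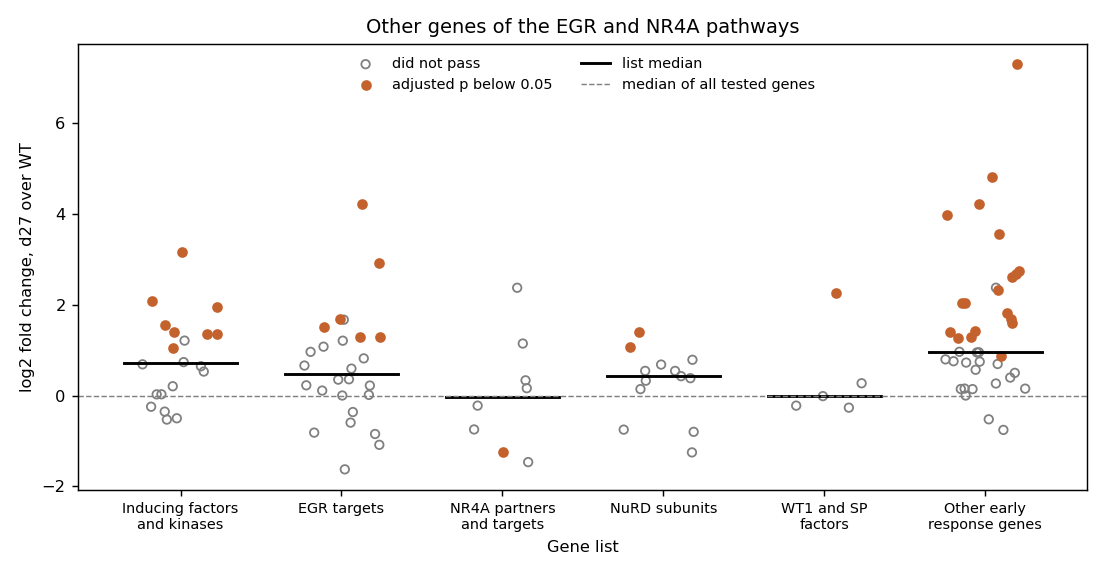
Each point is the edgeR log2 fold change, d27 over WT, of a tested gene in 1 of 6 lists, filled where the adjusted p was below 0.05. Sideways position within a list is arbitrary. Black lines are list medians, from -0.03 for NR4A partners and targets to 0.96 for other early response genes, and the dashed line is the median of all tested genes.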

How the data were processed

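Each of 4 deposited tables holds whole-number read counts by gene, which the authors made with HTSeq on GRCh38, per the submitters' processing notes, which also name DESeq2. The labels' protocols describe Trizol extraction from V5 precipitates, ribosomal RNA depletion and a strand-marking kit. No aligner, annotation release, strand setting or version was named (not given in the sources used here). HTSeq summary entries stayed out of library sizes and tests. They took 25.9% to 47.6% of entries.

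Counts were tested with edgeR 4.0.16 in R 4.3.3: TMM factors, filterByExpr (minimum count 10, minimum total 15), robust glmQLFit and glmQLFTest on group, Benjamini-Hochberg adjustment over 14909 genes and a threshold of 0.05. Standard errors were obtained as |log2 fold change|/√F. CPM values use library totals times TMM factors. The script was tested on simulated data. Alternatives were DESeq2 1.42.0, its size factors, library totals, no filter, a replicate block, each library left out and, chosen after seeing the data, an offset for GC content and exon length. Symbols came from a gene name table (60463 of 60719 genes matched), positions and lengths from GENCODE release 29 (58488 matched) and promoters from RefSeq. Intervals and the floor of 3 counts cover counting error only.

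All 9 genes of the set are named, with up to 3 called genes of each list by lowest p and the 5 genes nearest to EGR1. The set, lists and motifs were chosen with earlier results of these data known.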

Additional observations from a re-analysis of the deposited data

How the results depend on the processing

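Direction held for all 8 tested genes of the set in all 10 alternatives: of 80 estimates, 70 stayed on their side of the threshold, 3 lost it, 7 gained it and 0 changed sign. EGR1, EGR3 and NR4A2 passed in all 10, which is no independent support, since the set was chosen on this contrast. NAB2 passed with the replicate block and NR4A1 with DESeq2, without a filter, with the replicate block and with the GC and length offset. Of 16 other named genes, KIF5A alone changed sign, from -0.57 without WT replicate 1 to 0.40 without WT replicate 2.

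Calls over all genes were 1743, and became 2831 with DESeq2, 2862 without a filter, 3575 with the replicate block and 768 to 4851 with a library left out. Calls in the set were 3 to 6 with a library left out. EGR target calls were 10 with DESeq2, 10 with the replicate block and 3 to 14 with a library left out. NR4A partner and target calls were 0 with library totals, 3 with DESeq2, 3 without a filter, 4 with the replicate block, 2 with the offset and 1 to 4 with a library left out. NuRD calls were 1 with library totals, 5 with DESeq2, 4 without a filter, 5 with the replicate block, 4 with the offset and 0 to 5 with a library left out. The cause of these shifts was not tested. Calls for factors and kinases that act on EGR and NR4A promoters, for GC-site factors and for other early response genes stayed within 1.5 times.

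The labels do not say that a replicate number marks a shared day or culture, and 2 pairs cannot settle it. Differences between replicates 1 and 2 correlated weakly between WT and d27 (r = 0.13 over 14909 genes). Depth limits EGR4, and EGR2, EGR3 and NR4A2 in WT, where EGR3 had 5 and 7 counts. A lone library in a left-out fit is assumed to vary like the other group.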
